A study of Mus musculus with 6 samples.

Results

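The 10 circadian clock genes *Arntl*, *Clock*, *Npas2*, *Per1*, *Per2*, *Per3*, *Cry1*, *Nr1d1*, *Nr1d2* and *Dbp* were found by symbol among the 28529 genes of the count table, and all 10 were present and passed the filter on low counts. The RNA came from epididymal white adipose tissue (eWAT) of 3 whole-body *Maf1* knockout (KO) mice and 3 wild-type (WT) mice. MAF1 represses transcription by RNA polymerase III. All 6 mice were males of the C57BL/6 strain (C57Bl/6J in the methods) aged 22 to 24 weeks, were kept on a breeder chow diet and went without food overnight before the fat was taken. Each mouse gave 1 library, called here by genotype and replicate number (KO1 to KO3 and WT1 to WT3), and triplets of values below are in the order of these numbers. The hour at which each mouse was sampled is not given in the sources used here.

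In most mammalian cells the proteins of *Arntl* (BMAL1) and *Clock*, or *Npas2* in its place, pair and switch on genes that carry a DNA element called the E-box. Among these genes are the *Per* and *Cry* genes, whose proteins return to inhibit that pair, and *Nr1d1* and *Nr1d2* (REV-ERBα and β), which repress *Arntl* and *Npas2*. *Dbp* is an E-box target too, and its protein acts through the D-box on genes such as *Per3*. In mouse peripheral tissues, fat included, *Arntl* and *Npas2* mRNA peak around the end of the night, whereas *Nr1d1*, *Dbp* and the *Per* genes peak later, between the light phase and the early night. A comparison of *Dbp* with *Arntl* therefore serves as a rough clock reading of a tissue sample.

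The RefSeq promoter table (GRCm38.p6) held 9 of the 10 genes, all but *Per2*, each from 250 bases before to 50 bases after an annotated start. The elements searched on both strands were the E-box CACGTG and its variant CACGTT, the D-box TTATGTAA and its variant TTACGTAA, the REV-ERB and ROR element TAGGTCA and its variant TGGGTCA, and the cAMP response element TGACGTCA. The E-box and its variant differ in 1 letter, so they cannot match at the same place on the same strand. The windows below show the clock genes with a match, since these are the elements through which the clock proteins are known to act. A match of letters is a description and no sign of binding, and capitals mark it.
*Per1* E-box, 166 bases before the start: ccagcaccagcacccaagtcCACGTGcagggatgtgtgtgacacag
*Cry1* E-box variant and E-box, 79 and 60 bases before the start: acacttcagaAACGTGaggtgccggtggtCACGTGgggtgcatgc
*Nr1d1* E-box variant, 28 bases before the start: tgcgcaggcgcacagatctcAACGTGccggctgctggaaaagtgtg
*Per3* D-boxes, 205 and 158 bases before the start: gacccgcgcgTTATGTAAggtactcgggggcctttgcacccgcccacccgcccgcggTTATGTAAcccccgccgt
*Arntl* REV-ERB and ROR element, 30 bases after one of its starts: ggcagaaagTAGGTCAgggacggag

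These windows lie at chr11:69098763-69098808 on the plus strand (*Per1*), chr10:85185099-85185143 on the minus strand (*Cry1*), chr11:98775380-98775425 on the minus strand (*Nr1d1*), chr4:151044806-151044880 on the minus strand (*Per3*) and chr7:113207532-113207556 on the plus strand (*Arntl*). The variant is printed as its reverse complement in *Cry1* and *Nr1d1*. Over all 32851 promoters of the table, 7.15% held CACGTG, 4.68% CACGTT, 0.938% TTATGTAA, 0.119% TTACGTAA, 2.61% TAGGTCA, 3.98% TGGGTCA and 1.79% TGACGTCA. *Clock*, *Npas2*, *Nr1d2* and *Dbp* had none of these letters in the window, which says nothing of elements elsewhere in or near those genes.

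The libraries held between 7207476 counts in KO2 and 15971900 counts in WT2. *Maf1* itself was counted 150, 87 and 300 times in KO1 to KO3, against 655, 1120 and 852 times in WT1 to WT3. The first principal component of all genes tested held 60.7% of the variance and set KO1 and WT1 apart from the other 4 libraries. Markers of spermatids, cells of the neighbouring testis, reached a summed CPM (counts scaled to library size) of 0.725, 189 and 104 in KO1 to KO3, against 7.04, 862 and 112 CPM in WT1 to WT3. Epididymis and seminal vesicle markers summed to 867, 5654 and 7005 CPM in the KO libraries and to 12.5, 5206 and 3735 CPM in the WT libraries. Smooth muscle markers were highest in 2 KO libraries, with sums of 2909, 6258 and 696 CPM in KO1 to KO3 and of 858, 659 and 818 CPM in the WT libraries. The 9 adipocyte markers summed to between 18780 and 29088 CPM in KO and between 23468 and 26100 CPM in WT eWAT, so the sums overlapped between genotypes. Taken singly, 2 of the 9 did not overlap between genotypes in CPM, against 6.27% of all genes tested.

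The activators were measured first. *Arntl*, on chromosome 7 of mm9 (120350979 to 120457636), was counted 255, 168 and 363 times in KO1 to KO3 and 431, 160 and 358 times in WT1 to WT3. Scaled to library size with TMM factors, as CPM, this was 23.1, 22.5 and 26.9 CPM in the KO libraries, against 37.5, 9.55 and 28.0 CPM in the WT libraries. The 3 KO values thus lay inside the WT range, which ran from a low in WT2 to a high in WT1, 3.92-fold apart. *Clock*, on chromosome 5 (76639992 to 76733817), had 220.4, 149 and 151 CPM in KO1 to KO3 (2433, 1111 and 2035 counts) and 219, 123 and 155 CPM in WT1 to WT3 (2515, 2067 and 1987 counts). Its highest values were those of KO1 and WT1. *Npas2*, on chromosome 1 (39250576 to 39420079), had 100, 34 and 135 counts in the KO libraries and 128, 81 and 97 counts in the WT libraries. These counts came to 9.06, 4.55 and 9.99 CPM in KO1 to KO3 and to 11.1, 4.84 and 7.58 CPM in WT1 to WT3. *Npas2* was low in both libraries numbered 2, and the 95% counting intervals of these values, 3.15 to 6.36 CPM in KO2 and 3.84 to 6.01 CPM in WT2, overlapped. Such intervals cover counting error only.

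Of the inhibitors, *Per1*, on chromosome 11 (68908719 to 68923462), had 88.8, 61.9 and 92.8 CPM in KO1 to KO3 (980, 462 and 1255 counts), against 116, 89.2 and 57.4 CPM in WT1 to WT3 (1334, 1494 and 735 counts). *Per2*, on chromosome 1 (93312561 to 93355907), had 28.9, 16.5 and 23.8 CPM in the KO libraries (319, 123 and 322 counts), against 28.3, 38.6 and 23.2 CPM in the WT libraries (326, 646 and 297 counts). *Per2* was thus lowest in KO2 and highest in WT2, with the other 4 libraries between them. *Per3*, on chromosome 4 (150377761 to 150418774), had 148, 58.9 and 75.7 CPM in KO1 to KO3 (1632, 440 and 1023 counts) and 107, 139 and 79.7 CPM in WT1 to WT3 (1228, 2330 and 1020 counts). It was highest in KO1 and WT2, 1 library of each genotype. *Cry1*, on chromosome 10 (84594447 to 84647799), was the steadiest of the 10 genes, with 8.79, 13.3 and 9.10 CPM in the KO libraries (97, 99 and 123 counts) and 11.6, 11.0 and 10.5 CPM in the WT libraries (133, 185 and 135 counts). Its 6 values lay within 1.51-fold.

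*Nr1d1*, on chromosome 11 (98629246 to 98636647), had 117, 51.0 and 52.7 CPM in KO1 to KO3 (1297, 381 and 712 counts) and 97.6, 63.5 and 62.0 CPM in WT1 to WT3 (1123, 1064 and 794 counts). Both libraries numbered 1 were above the other 4, as for *Clock*. The end of *Nr1d1* overlaps *Thra*, a thyroid hormone receptor gene on the opposite strand (98601952 to 98630320). The strand setting used in counting is not given in the sources used here, so how reads in the overlap were counted is not known. *Nr1d2*, on chromosome 14 (19036568 to 19071641), had 75.8, 77.9 and 73.6 CPM in the KO libraries (837, 582 and 995 counts), against 62.5, 98.5 and 65.3 CPM in the WT libraries (719, 1649 and 836 counts). The 3 KO values lay within 1.06-fold and the 3 WT values within 1.58-fold, with WT2 highest and WT1 lowest.

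*Dbp*, the output gene, on chromosome 7 (52960458 to 52965525), varied most. It was counted 257, 380 and 277 times in KO1 to KO3, against 83, 868 and 271 times in WT1 to WT3. This gave 23.3, 50.9 and 20.5 CPM in the KO libraries and 7.22, 51.8 and 21.2 CPM in the WT libraries. KO2 and WT2 were high and WT1 was low, while KO1, KO3 and WT3 lay close together. The counting interval of WT1, 5.75 to 8.95 CPM, stood apart from that of WT3, 18.7 to 23.8 CPM, so counting error did not span the 7.18-fold difference among the WT libraries. The end of *Dbp*, from 52964837 to 52965525, overlaps *Sphk2*, a sphingosine kinase gene on the opposite strand (52964837 to 52973372). As for *Nr1d1*, the strand setting used in counting is not given in the sources used here, so how reads in the overlap were counted is not known.

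**Figure D1:**
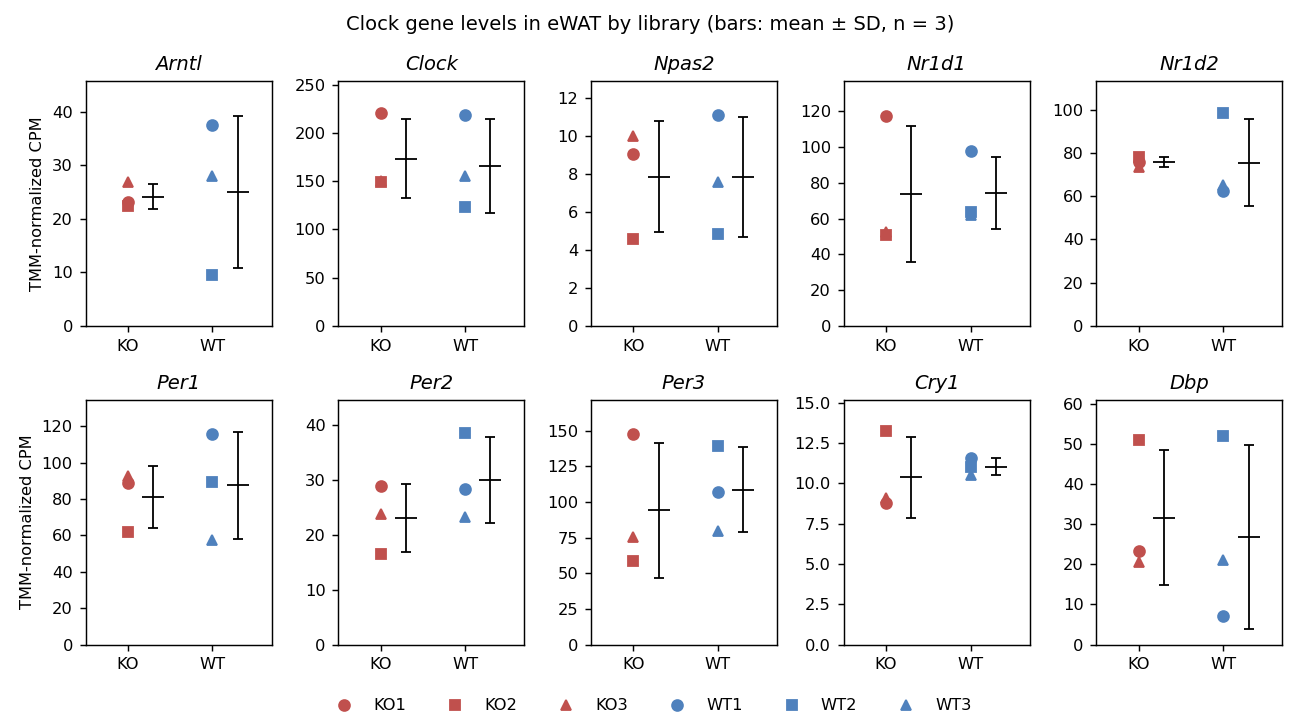
TMM-normalized CPM (vertical axes, from 0) of the 10 clock genes in each KO and WT library, marked by replicate number, with the mean ± SD of 3 mice as a black bar. The KO and WT points overlap in every panel, and *Dbp* and *Arntl* spread most within WT, with *Dbp* at 7.22 CPM in WT1 and 51.8 CPM in WT2.

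For levels of different genes, CPM were set per kilobase of exon. On this scale *Nr1d1* had the highest level, 23.6 ± 12.1 CPM per kb in KO and 23.8 ± 6.45 in WT eWAT (SD, n = 3 each). *Clock* followed at 19.6 ± 4.62 in KO and 18.8 ± 5.49 in WT, then *Nr1d2* and *Per1*, *Per3* and *Dbp*, and *Arntl*, whose group means lay between 8.26 and 15.5 CPM per kb. *Per2* and *Cry1* came next, at 3.95 ± 1.07 and 3.44 ± 0.828 CPM per kb in KO and at 5.14 ± 1.34 and 3.67 ± 0.169 in WT. *Npas2* was the lowest, at 1.64 ± 0.607 in KO and 1.64 ± 0.659 in WT. Neighbours in this order overlapped over the 6 libraries except *Cry1* (2.91 to 4.40 CPM per kb) and *Npas2* (0.951 to 2.32 CPM per kb). Within the pairs *Nr1d2* and *Per1* and *Per3* and *Dbp*, the order differed between KO and WT means. The order is a description and carries no test.

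The comparison of genotypes asks whether loss of *Maf1* went with a change of these mRNAs in fasted eWAT. None of the 10 genes passed an adjusted p of 0.05 in edgeR's quasi-likelihood test, where 0% of all 16101 genes tested passed. At an unadjusted p under 0.05 the count was 0 of 10, against 1.88% of all genes tested. DESeq2 called 0 of the 10 genes, with 0.087% of all genes called, and edgeR's exact test called 0 of the 10, with 0.0248% of all genes called, and limma voom 0 of the 10, with 0% of all genes called. All 10 genes overlapped between genotypes in CPM, whereas 6.27% of all genes tested did not overlap. The median log2 fold change, KO over WT, was −0.030 over the 10 clock genes and 0.0078 over all genes tested.

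*Per2* came nearest to the threshold, at 23.1 ± 6.25 CPM in KO and 30.0 ± 7.83 CPM in WT eWAT (SD, n = 3 each), a log2 fold change of −0.38 (standard error 0.29, edgeR unadjusted p = 0.236, adjusted p = 1.00). *Dbp* had the widest interval, with 31.5 ± 16.8 CPM in KO and 26.7 ± 22.8 CPM in WT and a log2 fold change of 0.23 (standard error 0.71, 95% interval −1.46 to 1.92). Differences of several-fold in either direction are inside that interval. *Nr1d2* had the narrowest one, −0.51 to 0.52 around 0.0063, with 75.8 ± 2.16 CPM in KO and 75.4 ± 20.0 CPM in WT. *Arntl* averaged 24.1 ± 2.36 CPM in KO and 25.0 ± 14.2 CPM in WT, with an interval of −1.16 to 1.06. For *Nr1d1* the group means were 73.7 ± 37.9 CPM in KO and 74.4 ± 20.1 CPM in WT, and the interval was −0.93 to 0.90.

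The log2 fold changes of the other members were 0.064 for *Clock*, 0.0099 for *Npas2*, −0.11 for *Per1*, −0.20 for *Per3* and −0.093 for *Cry1*, each with an interval that held 0. All 10 adjusted p-values of edgeR's quasi-likelihood test were 1.00. A p-value above the threshold does not show that the genotypes were alike. Except for *Per2*, which stayed between −0.57 and −0.16, the sign of each log2 fold change turned when some single library was left out. *Dbp* moved to −0.29 without KO2, −0.22 without WT1 and 1.15 without WT2, and *Arntl* moved to 0.37 without WT1 and −0.44 without WT2. In bulk tissue, fewer cells of a type and less RNA per cell cannot be told apart.

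**Figure D2:**
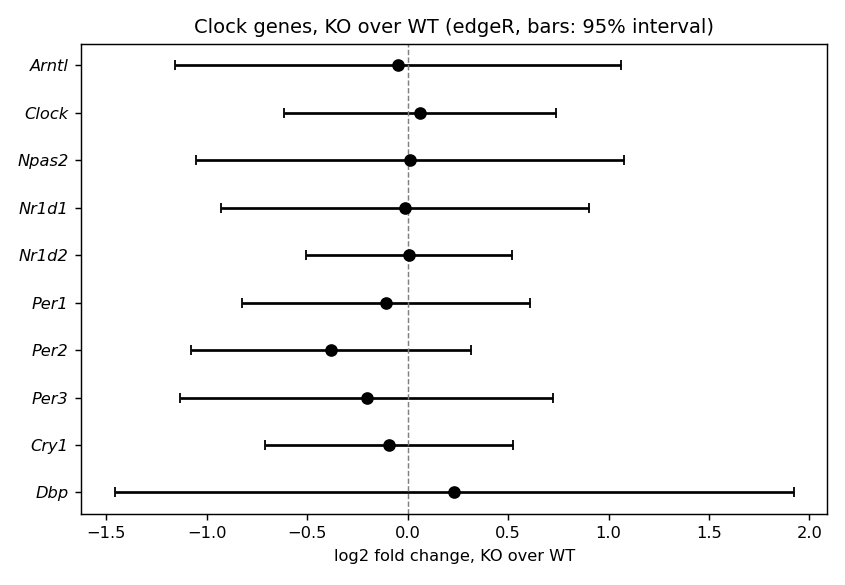
log2 fold change, KO over WT, of each clock gene (horizontal axis) with its 95% interval from the edgeR fit, 3 libraries per genotype. Every interval holds 0, and that of *Dbp* is the widest, from −1.46 to 1.92.

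The spread within a genotype was larger than the difference between genotypes for all 10 clock genes, as measured by the pooled SD of log2(CPM + 0.5). The share of all genes for which this holds was not computed, so it is not read as a trait of the clock genes. That SD was 1.10 for *Dbp*, 0.72 for *Arntl*, 0.57 for *Npas2*, 0.56 for *Per3* and 0.54 for *Nr1d1*. It was 0.23 for *Cry1* and 0.26 for *Nr1d2*, the steadiest genes. For *Per2* the margin was slight, with an SD of 0.384 beside a mean difference, KO minus WT, of −0.380. Among the 12153 genes with a mean of at least 5 CPM, 6.80% had an SD at or above that of *Dbp* and 12.4% at or above that of *Arntl*. The median SD was 0.48 over the 10 clock genes and 0.32 over those 12153 genes, and 8 of the 10 clock genes lay above the median of all those genes.

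For most of the 10 genes both extremes lay in KO1, KO2, WT1 or WT2. KO1 held the highest value of *Clock*, *Per3* and *Nr1d1*, WT1 that of *Arntl*, *Npas2* and *Per1*, and WT2 that of *Per2*, *Nr1d2* and *Dbp*. KO2 held the lowest value of *Npas2*, *Per2*, *Per3* and *Nr1d1*, WT1 that of *Nr1d2* and *Dbp*, and WT2 that of *Arntl* and *Clock*. For *Cry1*, KO2 held the highest and KO1 the lowest value. KO3 held none of the extremes, and WT3 only the lowest *Per1*.

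Ratios of counts within a library do not depend on how libraries are scaled. The log2 ratio of *Dbp* to *Arntl*, with 0.5 added to each count, was 0.011, 1.18 and −0.39 in KO1 to KO3, against −2.37, 2.44 and −0.40 in WT1 to WT3. WT1 and WT2 were the extremes, 28.0-fold apart, and all 3 KO libraries lay between them. *Dbp* over *Npas2* was 1.36, 3.46 and 1.03 in the KO libraries and −0.62, 3.41 and 1.48 in the WT libraries, so KO2 and WT2 were alike at the top and WT1 was lowest. *Dbp* over *Clock* was −3.24, −1.55 and −2.87 in the KO libraries and −4.91, −1.25 and −2.87 in the WT libraries. In each of these 3 ratios WT1 was the lowest library.

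The ratios with *Nr1d1* or *Per3* gave another order. *Nr1d1* over *Arntl* was 2.34, 1.18 and 0.97 in KO1 to KO3 and 1.38, 2.73 and 1.15 in WT1 to WT3, with WT1 in the middle of the 6. *Per3* over *Arntl* was 2.68, 1.39 and 1.49 in the KO libraries and 1.51, 3.86 and 1.51 in the WT libraries. In both, KO1 and WT2 were the highest and the other 4 lay close together. *Nr1d1* over *Npas2* spanned 2.39 in KO3 to 3.71 in WT2, and *Per2* over *Cry1* spanned 0.31 in KO2 to 1.80 in WT2. WT2 was the highest library in 6 of the 7 ratios and the second highest in *Dbp* over *Npas2*, while the places of WT1, KO1 and KO2 depended on which genes were set against each other. The ratios share genes and are not separate readings. WT2 had the lowest *Arntl* (9.55 CPM) and the highest *Dbp* (51.8 CPM), and most of the ratios hold 1 of these genes or both.

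Averaged by genotype, *Dbp* over *Arntl* was 0.27 ± 0.81 in KO and −0.11 ± 2.42 in WT eWAT (SD, n = 3 each, log2), a difference of 0.38. Without WT1 that difference was −0.75, without WT2 1.65 and without KO2 −0.078. *Nr1d1* over *Arntl* averaged 1.50 ± 0.74 in KO and 1.75 ± 0.85 in WT, a difference of −0.25, which was 0.23 without WT2. The differences of all 7 ratios lay between −0.44 (*Per3* over *Arntl*) and 0.53 (*Dbp* over *Npas2*), each smaller than the SD within at least one genotype, and each of the 7 took both signs when single libraries were left out. The ratios are descriptions, and they were not turned into hours, since neither a sampling time nor a series of times is given in the sources used here.

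**Figure D3:**
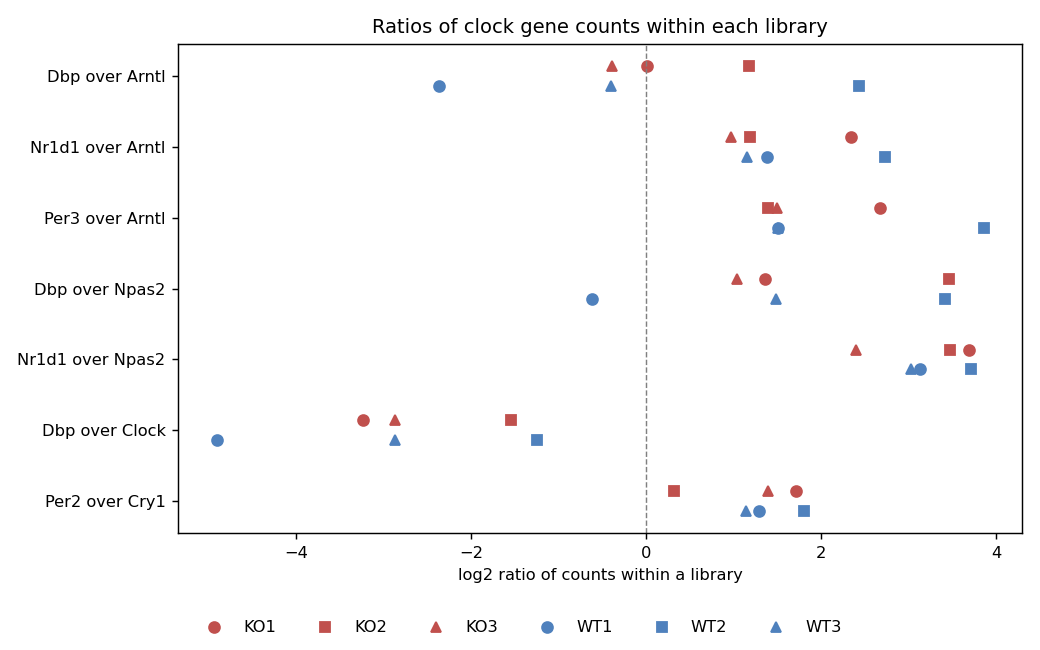
log2 ratio of the counts of 2 clock genes within a library (horizontal axis) for 7 pairs, KO libraries above WT libraries in each row, marked by replicate number. For *Dbp* over *Arntl* the WT libraries run from −2.37 to 2.44 and hold all KO libraries between them.

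The other genes of the core and secondary loops were read from the same fit. Of 12 listed genes, 12 were tested and 0 passed in edgeR's quasi-likelihood test, 0 had an unadjusted p under 0.05, and 0 passed in DESeq2, the exact test or voom. The median log2 fold change was 0.068. *Ciart*, an inhibitor of the BMAL1 and CLOCK pair, was counted 19, 18 and 19 times in KO1 to KO3 and 1, 56 and 6 times in WT1 to WT3. This was 1.72, 2.41 and 1.41 CPM in the KO libraries against 0.0869, 3.34 and 0.469 CPM in the WT libraries, so the WT1 value rests on a single read. *Hlf*, a relative of *Dbp* that binds the same D-box, had 16.1, 33.5 and 20.9 CPM in the KO libraries and 6.35, 18.9 and 18.5 CPM in the WT libraries. Both were lowest in WT1, as *Dbp* was. *Tef*, the third gene of the *Dbp* family, was instead high in KO1 and WT2 (200.2 and 201 CPM) and between 113 and 141 CPM in the other 4 libraries, as *Per3* was.

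*Arntl2*, the paralog of *Arntl*, had 4.53, 1.07 and 2.29 CPM in KO1 to KO3 and 7.04, 4.0 and 3.12 CPM in WT1 to WT3, and *Nfil3*, a repressor at the D-box, was also highest in WT1 (9.30 CPM) and ranged from 4.76 to 8.43 CPM elsewhere. *Rora*, which activates *Arntl* at the element that REV-ERBs repress, had its highest values in KO1 and WT1, 133 and 115 CPM. *Cry2* ranged from 37.0 to 62.6 CPM, *Bhlhe40* from 19.7 to 29.9 CPM, *Bhlhe41* from 7.06 to 19.5 CPM and *Timeless* from 3.65 to 5.70 CPM. *Rorb* was at or below 5.22 CPM in every library, with as few as 4 counts in KO3, and *Arntl2* had 8 counts in KO2.

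**Figure D4:**
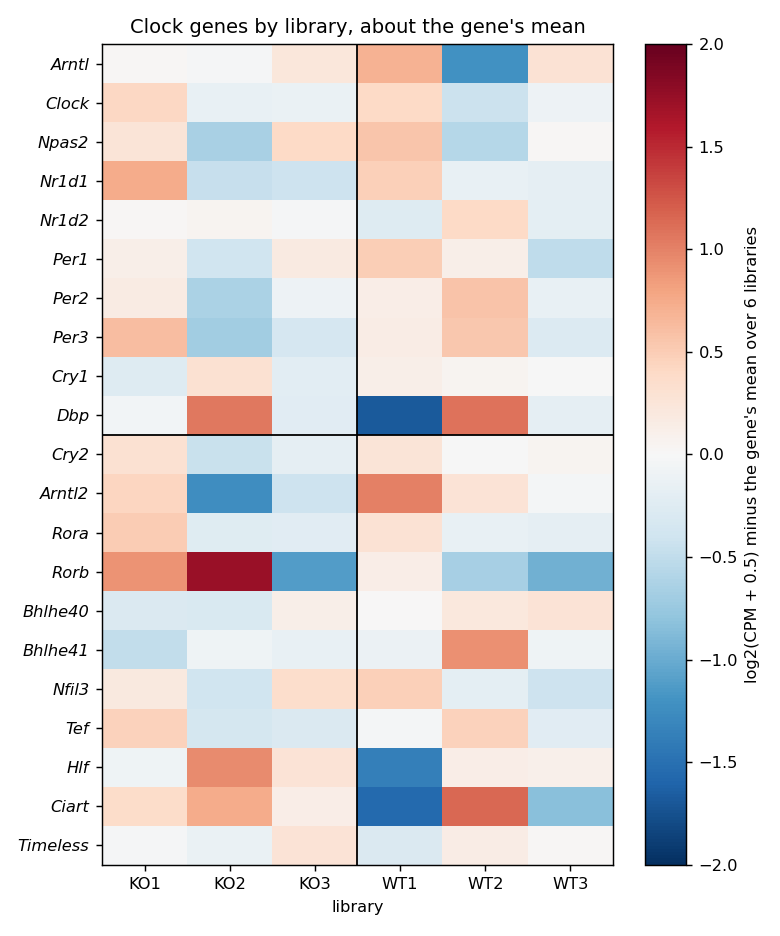
log2(CPM + 0.5) of the 10 clock genes (above the line) and 11 further clock genes (below it) minus each gene's mean over 6 libraries (color), KO libraries left of WT libraries. WT1 is low and WT2 high for *Dbp* and *Ciart* (−1.68 and 1.09 for *Dbp*), and *Arntl* shows the reverse (0.70 in WT1 and −1.21 in WT2).

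Kinases, ubiquitin ligases and cofactors that act on clock proteins were tested as a list of 21, and 0 passed in edgeR's quasi-likelihood test or had an unadjusted p under 0.05. *Usp2*, a clock-controlled deubiquitinase, had 13.3, 16.5 and 15.6 CPM in KO1 to KO3 and 13.9, 35.0 and 12.2 CPM in WT1 to WT3, so that WT2 was again the highest. Among 16 genes that respond to glucocorticoids or fasting, 0 passed and 0 had an unadjusted p under 0.05. The metallothionein gene *Mt1* had the smallest p of that list, at 189, 510 and 203 CPM in the KO libraries and 211, 138 and 143 CPM in the WT libraries.

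*Per1* also answers to acute stimuli, as the immediate early genes do. Of 12 such genes 0 passed and 1 had an unadjusted p under 0.05, *Jun*, at 35.8, 35.7 and 38.5 CPM in KO1 to KO3 and 80.9, 42.5 and 51.9 CPM in WT1 to WT3. *Fos* was at 41.8 CPM in WT1, the library with the highest *Per1*, and between 6.09 and 12.1 CPM in the other 5. The part of such stimuli in the level of *Per1* was not tested.

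The sums of other tissue markers were set beside *Dbp*. The spermatid sum was highest in KO2 and WT2, the libraries with the highest *Dbp* (50.9 CPM in KO2 and 51.8 CPM in WT2). Between these 2 libraries the spermatid sum differed 4.56-fold. The sum was lowest in KO1 and WT1, where *Dbp* was 23.3 and 7.22 CPM and *Nr1d1* and *Clock* were highest, and in these 2 libraries *Tnp1* was at 0 and 0.174 CPM and *Tnp2* at 0.181 and 0 CPM. The epididymis and seminal vesicle sum was highest in KO3 (7005 CPM), where *Dbp* was 20.5 CPM. It was lowest in WT1 (12.5 CPM), the library with the lowest *Dbp*. The smooth muscle sum was highest in KO2 and KO1. The part of neighbouring tissue in the levels of the clock genes was not tested. Without KO1 and WT1, 0 of the 10 clock genes passed in edgeR's quasi-likelihood test, and the log2 fold changes of *Dbp* and *Arntl* were −0.039 and 0.40. Without KO2 and WT2, 0 of 10 passed and these values were 0.64 and −0.36.

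Likeness over the 6 libraries was described with Pearson's r of log2 CPM, which all share the same 6 libraries and depths. The 5 genes most like *Dbp* among 12152 others with a mean of at least 5 CPM were *Tchp*, *Rabepk*, *Ppm1g*, *Gfer* and *Rdh11* (r 0.981 to 0.992), and none of them belongs to the clock lists. Of the clock genes, *Ciart* (0.919), *Hlf* (0.869) and *Nr1d2* (0.821) were most like *Dbp*, at places 125, 397 and 755 among 16100 genes. These places are among all genes tested, without the limit of 5 CPM. *Ciart* was at or below 3.34 CPM in every library and had 1 count in WT1, so its r is uncertain. *Npas2* (−0.906), *Arntl* (−0.794), *Clock* (−0.742) and *Nfil3* (−0.734) ran opposite to *Dbp*, at places 15868, 15004, 14483 and 14395 of the 16100. Many genes outside the clock lists thus ran more opposite to *Dbp* than *Arntl* and *Clock* did. The genes most like *Arntl* were *Naa50*, *Itga9*, *Pde7b*, *Cd86* and *H2-Q4* (r 0.966 to 0.995), and *Nr1d2* was the clock gene most opposite to it (−0.968). *Nr1d1* and *Per3*, in contrast, had an r of −0.54 and −0.12 with *Dbp* and of 0.24 and −0.39 with *Arntl*.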

How the data were processed

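Total RNA of eWAT was depleted of ribosomal RNA and sequenced single-end from strand-marked libraries, 1 per mouse (3 KO, 3 WT). GSNAP (alignment), the mm9 build, HTSeq (counting) and edgeR are named in the submitters' processing notes. The expected count values deposited by the authors are whole numbers for each of 28529 genes, and 2 further lines, a library total and a normalization factor, were dropped. The authors' 6 normalized columns and their edgeR comparison (fold changes, p-values) were not used.

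After filterByExpr and TMM scaling, edgeR 4.0.16 (R 4.3.3) gave quasi-likelihood tests of genotype, with no other term, and the Benjamini-Hochberg adjustment spanned 16101 genes (threshold 0.05). The p-values rest on separate mice. DESeq2 1.42.0, edgeR's exact test, voom (limma 3.58.1), other factors and filters, a replicate block and the omission of libraries were tried. The test was checked on simulated data whose changes were larger than those of the clock genes. That check says nothing of the power to find changes of their size. Residuals of same-numbered libraries correlated at 0.66, 0.36 and 0.34, all over the 0.1 of the rule used for pairing. KO3 with WT2 (0.47) and KO2 with WT3 (0.29), of unlike number, were over 0.1 too. The remaining pairs, each with KO1 or WT1, correlated negatively. The rule therefore cannot show that the numbers pair libraries, and the mice are separate animals. Exon lengths and overlaps were taken from GENCODE vM1 (mm9), promoters from RefSeq (GRCm38.p6). Descriptions used pandas 2.3.3, numpy 2.4.6 and scipy 1.17.1 under Python 3.11.15, and figures used matplotlib 3.10.9.

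The members and the 12 other lists were chosen with earlier results of these data known. Named were all 10 members, every other core or secondary loop gene, up to 3 genes of each other list with the smallest p, and the 5 genes most like *Dbp* and *Arntl*, and some genes under this rule are not reported here. *Tnp1* and *Tnp2* also fall under that rule, and genes of the marker lists served only as values beside the clock genes. In the 8 lists of cell and tissue markers (adipocyte, epididymis and seminal vesicle, spermatid, smooth muscle, macrophage, endothelial, erythroid, brown adipocyte) 0 genes passed in edgeR's quasi-likelihood test, DESeq2, the exact test or voom, and 8 of the 49 tested had an unadjusted p under 0.05 in the first of these, 6 of them smooth muscle genes, against 1.88% of all genes.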

Additional observations from a re-analysis of the deposited data

How the results depend on the processing

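The count of clock genes that passed was 0 under each of the 15 alternatives. Of all genes tested, DESeq2 called 14 and edgeR's exact test 4, against 0 in the quasi-likelihood test, and none of those was among the lists described. The replicate block, a paired fit on the replicate number, changed no call. In it *Arntl* had a log2 fold change of 0.14. Of 150 recomputed log2 fold changes of the 10 clock genes, 36 had the other sign, the largest of them 0.40 in size, and the cause was not tested beyond the libraries that were left out.

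With limma voom *Arntl* stood at 0.23. With library size alone and with no filter on low counts, *Npas2* stood at −0.0080 and −0.0069 and *Nr1d2* at −0.028 and −0.021. Without KO1 and WT1 the values were 0.40 for *Arntl*, 0.082 for *Per1*, 0.046 for *Cry1*, −0.11 for *Nr1d2* and −0.039 for *Dbp*. Without KO2 and WT2, chosen after seeing the data, they were 0.090 for *Per1*, 0.051 for *Per2*, 0.27 for *Per3* and 0.10 for *Nr1d1*, and the log2 ratios, KO minus WT, were 0.34 for *Per2* over *Cry1* (−0.27 with all libraries), 0.39 for *Nr1d1* over *Arntl* (−0.25), 0.58 for *Per3* over *Arntl* (−0.44) and 1.20 for *Dbp* over *Arntl* (0.38). Leaving out 1 library at a time gave −0.44 to 0.37 for *Arntl*, −0.15 to 0.31 for *Clock*, −0.24 to 0.35 for *Npas2*, −0.32 to 0.15 for *Per1*, −0.57 to −0.16 for *Per2*, −0.69 to 0.044 for *Per3*, −0.30 to 0.012 for *Cry1*, −0.52 to 0.23 for *Nr1d1*, −0.11 to 0.24 for *Nr1d2* and −0.29 to 1.15 for *Dbp*. For the ratios it gave −0.75 to 1.65 for *Dbp* over *Arntl*, −0.68 to 0.23 for *Nr1d1* over *Arntl*, −0.85 to 0.34 for *Per3* over *Arntl*, −0.49 to 1.52 for *Dbp* over *Npas2*, −0.36 to 0.29 for *Nr1d1* over *Npas2*, −0.49 to 1.34 for *Dbp* over *Clock* and −0.56 to 0.14 for *Per2* over *Cry1*.

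Of the 10 clock genes, the lowest count was 34, for *Npas2* in KO2, so depth limits that value most, and of the further clock genes *Ciart* had 1 count in WT1. The intervals of the 10 clock genes rest on 3 mice per genotype.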
